A study of Mus musculus with 6 samples.

Results

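Corticosteroid signalling was described through 7 genes in mouse hippocampus: the receptor genes Nr3c1 and Nr3c2, the hormone-response genes Sgk1, Fkbp5, Tsc22d3 and Zbtb16, and the enzyme gene Hsd11b1. They were chosen by name, as rows of the 6 deposited gene tables, and all 7 were found once among 15639 rows. All 7 passed the filter of at least 1 FPKM (fragments per kilobase of transcript and per mapped depth, a level corrected for gene length and library size) in at least 3 libraries, as 13700 genes did. Total RNA came from hippocampi of 6-month-old mice and was sequenced in 6 libraries, of which 3 carried the label wild type (WT) and 3 the label APP/PS1. The APP/PS1 mice carried transgenes for mutant amyloid precursor protein (APP695swe) and mutant presenilin (PS1-dE9), and no treatment is named for either genotype. The labels give no sex, strain background, mouse line, promoter of the transgenes, pooling or time of day. Nor do they state whether each replicate was its own animal, so p-values reflect the scatter among the libraries alone, and that scatter may be technical.

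Corticosterone, the main stress hormone of the mouse adrenal gland, enters brain cells and binds a pair of related nuclear receptors. The mineralocorticoid receptor (MR, encoded by Nr3c2) binds it with high affinity and is largely occupied at rest, while the glucocorticoid receptor (GR, encoded by Nr3c1) binds it less tightly and is occupied at the daily peak and under stress. The hippocampus is known for holding both receptors in the same neurons, and the balance between them is a long-standing theme of stress research. Once bound, either receptor moves to the nucleus and raises or lowers the transcription of target genes through short DNA elements that both recognise.

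Library totals lay between 182355 and 185217 FPKM, with unknown read depth. The 6 hippocampal neuron markers checked were present in every library, with Rbfox3 the lowest at 31.6 FPKM or more. App, the amyloid precursor protein gene, stood at 69.8, 68.5 and 145.6 FPKM in WT replicates 1 to 3 and at 153.1, 71.0 and 166.2 FPKM in APP/PS1 replicates 1 to 3 (exact two-sided permutation p = 0.2, where 3 against 3 libraries cannot go below 0.1). App was thus against the label in the libraries labelled WT replicate 3 and APP/PS1 replicate 2, and Prnp, whose promoter drives the transgenes of a widely used APP/PS1 line, split the libraries in the same way. The groups below are named by label, and some results, not all, are also given for the other 4 libraries, a comparison chosen with the App and Prnp values known.

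Of the receptors, the MR gene stood lower in the APP/PS1-labelled libraries and the GR gene did not differ beyond the spread. Nr3c2 was listed at 19.2, 27.7 and 23.5 FPKM in WT replicates 1 to 3, and at 14.0, 14.8 and 12 FPKM in APP/PS1 replicates 1 to 3. Every APP/PS1-labelled library lay below every WT-labelled one, and the WT-labelled libraries were the more scattered. The means were 23.5 ± 4.22 and 13.6 ± 1.45 FPKM (SD, n = 3 per label), so the APP/PS1 mean was lower by 42.1% of the WT mean (-42.1%). On the log2(FPKM + 1) scale used for all fold changes here, the difference was -0.74 (SE 0.135, 95% interval -1.05 to -0.42). By limma its unadjusted p was 0.000979, the 41st smallest of the 13700 genes tested, and its Benjamini-Hochberg adjusted p of 0.326 did not pass the threshold of 0.05. In bulk tissue, fewer cells of a type and less RNA per cell cannot be told apart.

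Nr3c1 was nearly level over the series. It stood at 17.0, 15.2 and 15.8 FPKM in WT replicates 1 to 3, and at 17.3, 16.5 and 16.4 FPKM in APP/PS1 replicates 1 to 3. The labels overlapped, with means of 16.0 ± 0.902 and 16.8 ± 0.515 FPKM (SD, n = 3 per label). The log2 difference was 0.06 (SE 0.0578, 95% interval -0.07 to 0.20; limma, adjusted p = 0.899). The interval thus leaves out a difference as large as that of Nr3c2 in either direction.

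The balance of the receptor messages followed Nr3c2. FPKM is a level per length, so the genes can be set against each other: the ratio of Nr3c2 to Nr3c1 was 1.13, 1.82 and 1.49 in WT replicates 1 to 3, and 0.807, 0.896 and 0.732 in APP/PS1 replicates 1 to 3. By FPKM, a unit inferred here, the MR message was thus listed higher than the GR message in all 3 WT-labelled libraries. It was listed lower in all 3 APP/PS1-labelled libraries. The mean ratio was 1.48 ± 0.343 against 0.812 ± 0.0821 (SD, n = 3 per label), and it was not tested because it combines genes chosen with earlier results known. The sum of both receptors ranged from 36.2 to 42.9 FPKM under the WT label and from 28.4 to 31.3 FPKM under the APP/PS1 label. The libraries that App and Prnp placed with the other genotype kept to their labels here, at a ratio of 1.49 in WT replicate 3 and 0.896 in APP/PS1 replicate 2. Without these, the log2 difference of Nr3c2 was -0.79 (SE 0.190; limma, adjusted p = 0.444).

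**Figure D1:**
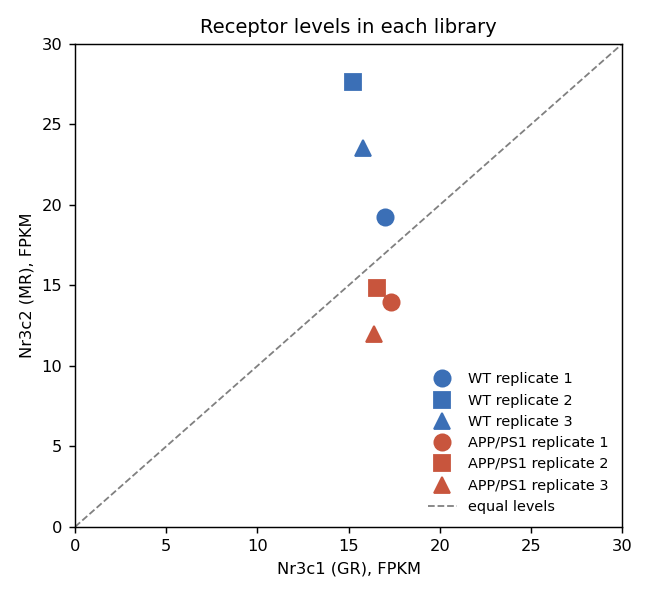
Each point is 1 library, with the Nr3c1 level on the x axis and the Nr3c2 level on the y axis (both FPKM); blue marks WT and red APP/PS1 labels, and the dashed line marks equal levels. The WT-labelled libraries lie above the line, with ratios from 1.13 to 1.82, and the APP/PS1-labelled libraries below it, from 0.732 to 0.896, while Nr3c1 spans only 15.2 to 17.3 FPKM.

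Receptor genes are also known to differ by hippocampal field, MR being strong in CA2, so markers of the cell types were read beside them. The summed level of the 6 CA2 pyramidal markers overlapped, at 95.1 to 116.5 FPKM for WT and 96.9 to 104.8 FPKM for APP/PS1 labels. That of the 4 CA1 markers overlapped too, at 91.6 to 111.3 against 94.5 to 105.7 FPKM. The summed level of the 6 dentate granule markers did not overlap, at 48.4 to 61.2 FPKM for WT and 38.4 to 47.7 FPKM for APP/PS1 labels. Taken singly, 2 of the 5 tested were lower with no overlap (6.51% of all genes tested) and 0 higher. The part of these markers in the Nr3c2 difference was not tested. None of these 16 markers was listed at 0 in any library. Of other steroid receptors, Pgr, the progesterone receptor gene, had a log2 difference of 0.11 (limma, adjusted p = 0.840), while Esr1 and Esr2, the oestrogen receptor genes, were not analysed here.

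The genes that corticosteroids induce came next, to see whether the response moved with the receptors. Sgk1 encodes a kinase that raises ion channel and transporter activity at the cell surface, and it is a classic target of both receptors. It stood at 22.2, 21.8 and 25.1 FPKM in WT replicates 1 to 3, and at 12.4, 23.4 and 11.9 FPKM in APP/PS1 replicates 1 to 3. APP/PS1 replicates 1 and 3 lay far below the others, and APP/PS1 replicate 2 lay among the WT-labelled libraries. The log2 difference over all 6 libraries was -0.57 (SE 0.251; limma, adjusted p = 0.779). Without APP/PS1 replicate 2 it was -0.86 (SE 0.0787, adjusted p = 0.0209), and in the 4 libraries it was -0.80 (SE 0.0588, adjusted p = 0.0233, against 0.197% of all genes past the threshold there). Sgk1 thus passed only in the alternatives, of those run, that left out APP/PS1 replicate 2.

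Tsc22d3 encodes GILZ, a leucine zipper protein that mediates anti-inflammatory effects of glucocorticoids. Its level was 12.1, 11.7 and 12.5 FPKM in WT replicates 1 to 3, and 6.29, 10.5 and 8.0 FPKM in APP/PS1 replicates 1 to 3. The labels did not overlap, and APP/PS1 replicate 2 again lay nearest to the WT-labelled libraries. The means were 12.1 ± 0.359 and 8.26 ± 2.11 FPKM (SD, n = 3 per label), with a log2 difference of -0.52 (SE 0.153; limma, unadjusted p = 0.0113, adjusted p = 0.626). In the 4 libraries the difference was -0.67 (SE 0.113, adjusted p = 0.233).

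Zbtb16 encodes PLZF, a zinc finger repressor whose transcription glucocorticoids raise in many cells. It stood at 28.7, 26.0 and 24.3 FPKM in WT replicates 1 to 3, and at 21.9, 21.9 and 21.2 FPKM in APP/PS1 replicates 1 to 3. All APP/PS1-labelled libraries were low and close together, and they did not overlap with the WT-labelled ones. Among the 7 genes this log2 difference was the smallest of those whose labels separated, at -0.27 (SE 0.0663; limma, unadjusted p = 0.00456, adjusted p = 0.531).

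Fkbp5 encodes FKBP51, a co-chaperone that GR induces and that in turn lowers the receptor's affinity for hormone, a short feedback loop. Its level was 7.63, 5.95 and 7.78 FPKM in WT replicates 1 to 3, and 6.2, 6.86 and 5.78 FPKM in APP/PS1 replicates 1 to 3. The labels overlapped through WT replicate 2, and the log2 difference was -0.15 (SE 0.106, 95% interval -0.40 to 0.10; limma, adjusted p = 0.864). Fkbp4, which encodes the related co-chaperone FKBP52 that favours receptor activity, stood at 29.99, 32.1 and 28.4 FPKM in WT replicates 1 to 3, and at 24.4, 27.9 and 26.7 FPKM in APP/PS1 replicates 1 to 3 (log2 difference -0.19, limma, adjusted p = 0.696). The ratio of Fkbp5 to Fkbp4 overlapped between the labels, with means of 0.238 ± 0.0466 and 0.239 ± 0.0195 (SD, n = 3 per label).

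Hsd11b1 encodes 11-beta-hydroxysteroid dehydrogenase type 1, which regenerates active corticosterone inside cells. It was the lowest of the 7 genes, at 2.43, 2.5 and 2.97 FPKM in WT replicates 1 to 3 and at 3.30, 1.82 and 2.02 FPKM in APP/PS1 replicates 1 to 3. The highest and the lowest library both carried the APP/PS1 label, and the log2 difference was -0.13 (SE 0.161; limma, adjusted p = 0.934). Its direction turned in the 4 libraries, at 0.06 (SE 0.180). H6pd, which supplies the cofactor for this enzyme, had a log2 difference of 0.04 (limma, adjusted p = 0.974), and Hsd11b2, the opposing enzyme that inactivates corticosterone, was not analysed here.

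**Figure D2:**
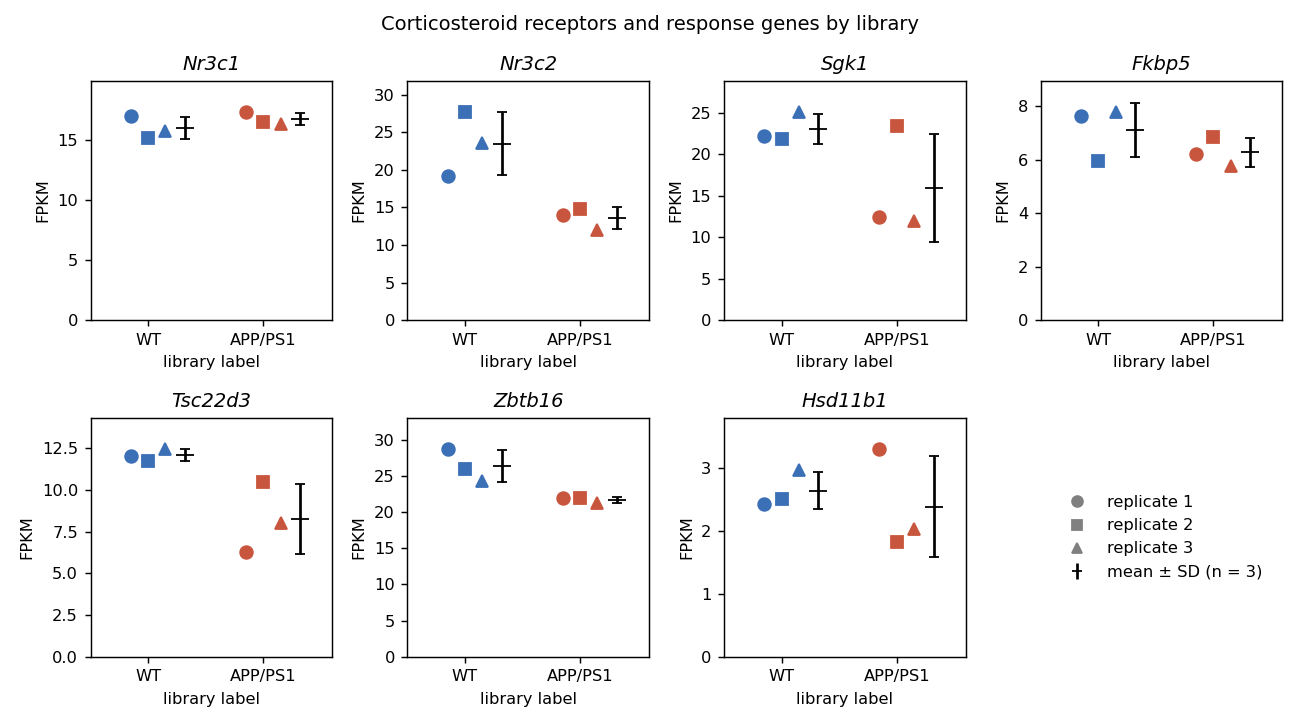
Each panel shows 1 gene with FPKM on the y axis (starting at 0) and the library label on the x axis; symbols mark replicates 1 to 3, and black bars give mean ± SD (n = 3). Nr3c2, Tsc22d3 and Zbtb16 separate by label, Sgk1 is high in APP/PS1 replicate 2 at 23.4 FPKM, and Nr3c1, Fkbp5 and Hsd11b1 overlap.

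Read together, 0 of the 7 genes passed an adjusted p of 0.05 by limma over all genes (0.0219% of all genes tested did, in either direction). At an unadjusted p under 0.05, 3 of 7 were lower (42.9%) and 0 higher, where 3.83% of all genes tested were lower and 2.85% higher. The same 3 genes, Nr3c2, Tsc22d3 and Zbtb16, were those lower with no overlap between labels, as 6.51% of all genes tested were. The median log2 difference was -0.27 over the 7 and -0.00089 over all genes tested. In the 4 libraries 4 of 7 were lower at an unadjusted p under 0.05 (4.98% of all genes tested), and the median was -0.33.

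Per library, the response was summarised as the mean over Sgk1, Fkbp5, Tsc22d3 and Zbtb16 of the log2 level around the mean of all 6 libraries. It was 0.23, 0.10 and 0.23 in WT replicates 1 to 3, and -0.34, 0.08 and -0.31 in APP/PS1 replicates 1 to 3. The labels did not overlap, but APP/PS1 replicate 2 lay close to WT replicate 2, whereas its receptor ratio of 0.896 was below every WT-labelled library. By level, Zbtb16 (mean of all 6 libraries 24.0 FPKM), Sgk1 (19.5), Nr3c2 (18.5) and Nr3c1 (16.4) came first and changed places between libraries, their ranges overlapping with the exception of Zbtb16 and Nr3c1, of which Zbtb16 was the higher in each of the 6 libraries. Tsc22d3 (10.2 FPKM), Fkbp5 (6.70) and Hsd11b1 (2.51) followed in this order in each of the 6 libraries.

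DNA at the start sites was read next, because some of the response genes stood low together. GR and MR bind an inverted repeat of the half-sites AGAACA and TGTTCT with a short spacer, searched here as GNACANNNTGTNC, which reads alike on both strands. This pattern leaves out the outermost base of each half-site and allows any base at 1 inner position of each. RefSeq start-site windows of the GRCm38.p6 build (250 bases before to 50 after a start) were in hand for 5 of the 7 genes, with 12 windows in all. The full element was found in 1 of the 12, and in 156 of all 32851 windows (0.475%). AGAACA or TGTTCT, with or without the full element, was found in 4 of the 12, in 3 of them without it, and in 19.0% of all windows. The window with the full element belonged to Sgk1 (chr10:21993640-21993939, plus strand), 1 of 6 annotated starts. The element began 188 bases before that start and 964 bases before the next start downstream, and with its flanking bases it held both half-sites. It is shown with the full element in capitals, followed by the Tsc22d3 window with a half-site (chrX:140600473-140600772, minus strand, half-site in capitals) and the 1 Nr3c2 window held (chr8:76902080-76902379, plus strand), in which neither was found.
Sgk1: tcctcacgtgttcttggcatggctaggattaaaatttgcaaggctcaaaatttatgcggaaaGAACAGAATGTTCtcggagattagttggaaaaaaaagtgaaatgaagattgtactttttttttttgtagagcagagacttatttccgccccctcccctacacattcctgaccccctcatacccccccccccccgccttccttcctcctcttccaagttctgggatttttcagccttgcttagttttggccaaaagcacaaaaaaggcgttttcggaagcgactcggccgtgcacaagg
Tsc22d3: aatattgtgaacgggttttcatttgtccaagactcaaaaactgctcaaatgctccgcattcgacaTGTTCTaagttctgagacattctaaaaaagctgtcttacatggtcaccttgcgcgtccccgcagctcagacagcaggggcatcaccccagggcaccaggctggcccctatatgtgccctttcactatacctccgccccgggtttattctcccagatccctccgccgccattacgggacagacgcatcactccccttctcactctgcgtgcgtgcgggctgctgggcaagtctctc
Nr3c2: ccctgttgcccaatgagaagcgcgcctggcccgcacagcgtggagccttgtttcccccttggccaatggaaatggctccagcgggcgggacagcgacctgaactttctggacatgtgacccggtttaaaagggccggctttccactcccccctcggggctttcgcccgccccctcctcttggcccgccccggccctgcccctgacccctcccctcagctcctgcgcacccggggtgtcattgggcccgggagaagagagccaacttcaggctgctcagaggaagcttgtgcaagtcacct

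The other glucocorticoid-induced genes were then counted, from a list of 24 drawn up from general knowledge of the pathway. Like all lists here, it was chosen with earlier results of these data known. Of these, 22 were tested, Angptl4 lay under the filter and Lcn2 was not analysed here. By limma 0 of 22 passed over all genes, and 14 of 22 (63.6%) were lower at an unadjusted p under 0.05, with 0 higher, against 3.83% and 2.85% of all genes tested. The log2 difference was negative in 21 of 22, against 50.4% of all genes tested, and its median was -0.29. In 13 of 22 (59.1%) the APP/PS1-labelled libraries lay wholly below the WT-labelled ones, as in 6.51% of all genes tested. In the 4 libraries 18 of 22 were lower at an unadjusted p under 0.05 (4.98% of all genes tested), and the median was -0.39. The count of 14 depended on single libraries: it was 6 without APP/PS1 replicate 1, 9 without WT replicate 3 and 7 with APP/PS1 replicate 3 left out.

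Pdk4, a kinase that shuts off pyruvate oxidation, had the smallest p of the list. It stood at 5.32, 5.25 and 6.13 FPKM in WT replicates 1 to 3, and at 3.72, 3.66 and 3.86 FPKM in APP/PS1 replicates 1 to 3, without overlap and with APP/PS1 replicate 2 as low as the others (log2 difference -0.47, SE 0.0743; limma, adjusted p = 0.229). Cdkn1a, the cell cycle inhibitor p21, stood at 4.47, 5.38 and 5.93 against 2.36, 3.50 and 2.73 FPKM (log2 difference -0.70, adjusted p = 0.326). Per1, a clock gene that corticosteroids induce directly, stood at 21.0, 18.3 and 17.9 against 12.7, 15.5 and 11.3 FPKM (log2 difference -0.51, adjusted p = 0.485). Arl4d, a small GTPase of the ARF family, had the largest difference of the list, at 12.2, 11.2 and 10.1 against 4.01, 7.86 and 5.20 FPKM (log2 difference -0.90, adjusted p = 0.531). In all 4 of these genes the labels did not overlap, and in Cdkn1a, Per1 and Arl4d the library labelled APP/PS1 replicate 2 was the nearest to the WT label.

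Further genes of the list are named after their values were seen. Ddit4, an inhibitor of mTORC1 induced by stress, stood at 21.6, 24.5 and 24.9 FPKM in WT replicates 1 to 3, and at 14.0, 20.6 and 14.1 FPKM in APP/PS1 replicates 1 to 3. Dusp1, a MAP kinase phosphatase, was likewise low in APP/PS1 replicates 1 and 3, at 16.8, 16.7 and 17.5 against 9.88, 15.9 and 6.97 FPKM (log2 difference -0.66; limma, adjusted p = 0.741). Klf9, a transcription factor that mediates hormone effects in neurons, had a narrow gap, at 49.4, 47.5 and 48.6 against 42.5, 45.9 and 42.1 FPKM. Mertk, a phagocytic receptor, was the 1 gene of the list with a positive difference, at 0.02. Without APP/PS1 replicate 2, Ddit4 (adjusted p = 0.0378), Nfkbia, which encodes the inhibitor of NF-kappaB (0.0378), and Arl4d (0.0371) fell past the threshold by limma, as did 0.161% of all genes in that fit.

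**Figure D3:**
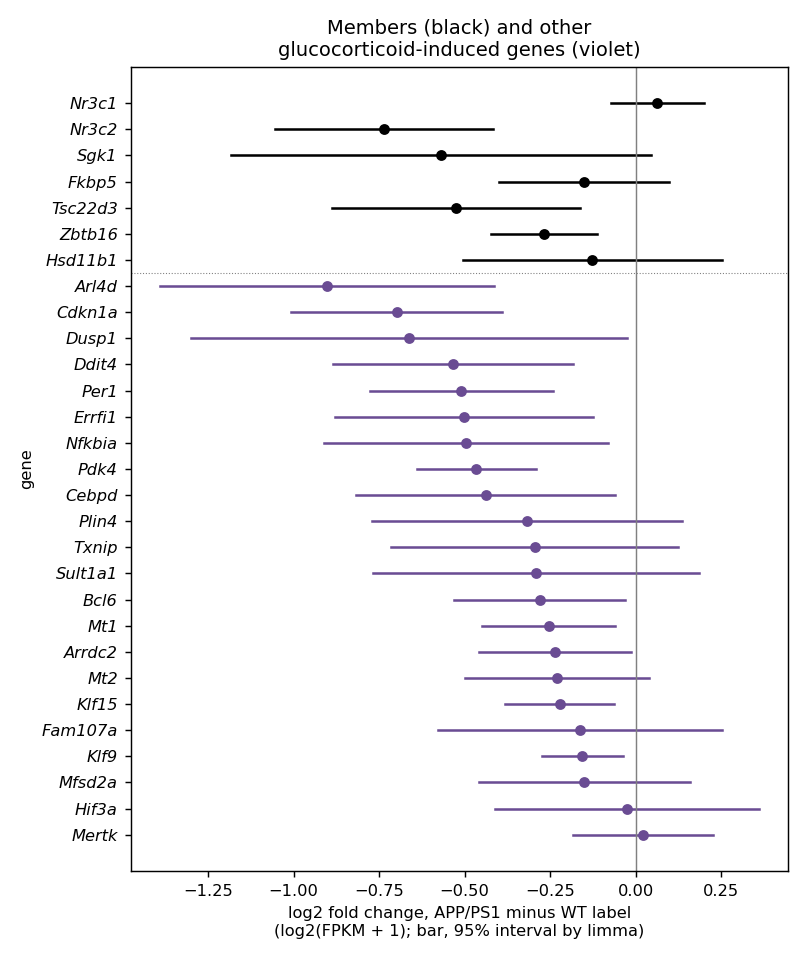
Points give the log2 difference between APP/PS1 and WT labels on the log2(FPKM + 1) scale (x axis) for each gene (y axis), with 95% intervals by limma; black marks the 7 genes described and violet the 22 other induced genes tested. Arl4d at -0.90 and Nr3c2 at -0.74 lie farthest from 0, and 21 of the 22 violet points lie below 0.

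The full element GNACANNNTGTNC was found in 4 of the 27 windows held for 21 of these 22 genes, and in 0.475% of all windows. The 4 were those of Mt1, Txnip and Fam107a, the last with 2 windows that overlap almost wholly. Mt1, a metallothionein gene known to respond to glucocorticoids, stood at 85.7, 73.2 and 72.7 FPKM in WT replicates 1 to 3, and at 59.0, 66.1 and 68.4 FPKM in APP/PS1 replicates 1 to 3. Its window (chr8:94178839-94179138, plus strand) is shown with the element in capitals, as an example outside Sgk1 from a gene whose labels separated. Levels at Txnip and Fam107a overlapped between labels. With so few genes holding the element, its link to the levels was not tested.
Mt1: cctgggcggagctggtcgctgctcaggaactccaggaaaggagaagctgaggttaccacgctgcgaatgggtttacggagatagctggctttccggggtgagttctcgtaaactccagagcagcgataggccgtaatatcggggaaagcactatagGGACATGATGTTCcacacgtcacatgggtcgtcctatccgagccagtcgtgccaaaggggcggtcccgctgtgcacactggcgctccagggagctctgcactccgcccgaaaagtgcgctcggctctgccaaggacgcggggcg

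APP/PS1 replicate 2 was the highest of the APP/PS1-labelled libraries for all 4 response genes. The same held for 17 of the 22 other induced genes (77.3%), and for 34.6% of all genes tested. For Zbtb16 the lead was slight, at 21.93 FPKM against 21.91 FPKM in APP/PS1 replicate 1, both below every WT-labelled library. The mean centred log2 level of the 22 was 0.20, 0.14 and 0.19 in WT replicates 1 to 3, and -0.32, 0.06 and -0.27 in APP/PS1 replicates 1 to 3. Neuronal activity is known to induce Per1 and Dusp1 as well as Sgk1, so 10 immediate early genes were read beside them. All 10 were lower with no overlap between labels, as 6.51% of all genes tested were. APP/PS1 replicate 2 was the highest APP/PS1-labelled library for all 10 as well, against 34.6% of all genes tested. By limma all 10 were lower at an unadjusted p under 0.05 (3.83% of all genes tested). In the 4 libraries 3 of 10 passed the threshold (0.197% of all genes tested). Their median log2 difference over all 6 libraries was -0.83, larger than the -0.29 of the 22. Their summed level was 455.3, 388.7 and 336.4 FPKM in WT replicates 1 to 3, and 200.03, 280.6 and 171.6 FPKM in APP/PS1 replicates 1 to 3. The share of FPKM from 13 mitochondrially encoded genes was 9.30%, 8.87% and 9.31% against 10.3%, 9.70% and 11.3%. By both measures APP/PS1 replicate 2 lay nearest to the WT label among the APP/PS1-labelled libraries, as it did for the mean of the 4 response genes. Their part in the lower response genes was not tested.

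**Figure D4:**
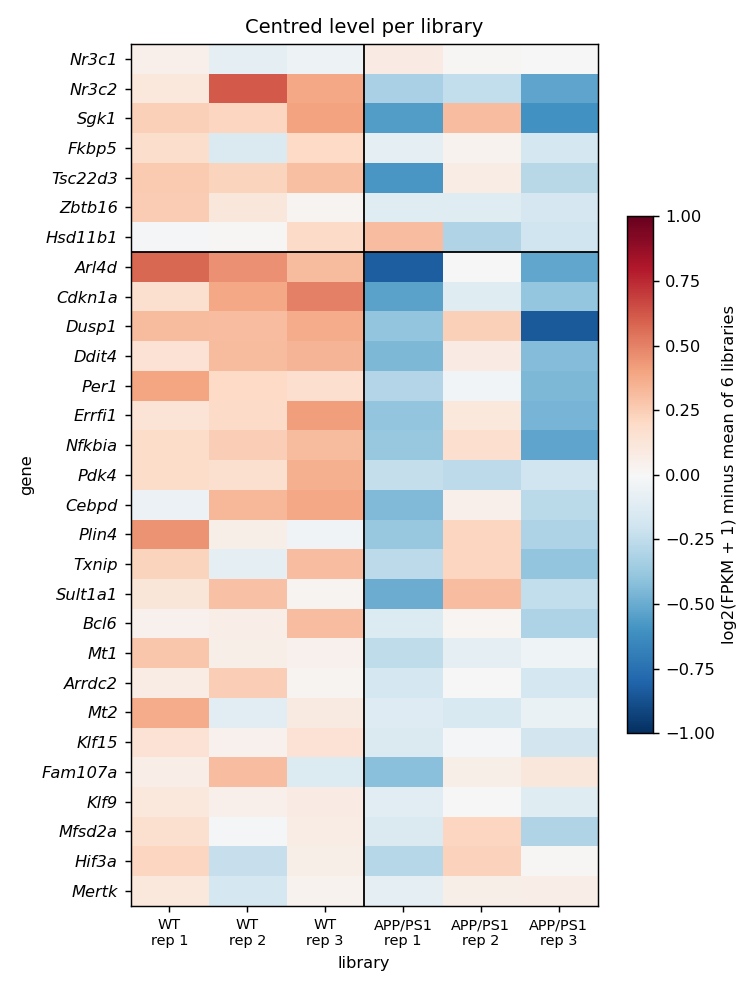
Colours give the log2(FPKM + 1) level minus the mean of the 6 libraries, for each gene (rows) and library (columns), with the 7 genes described above the line and the 22 other induced genes below it. APP/PS1 replicates 1 and 3 are mostly blue, with means of -0.32 and -0.27 over the 22 genes, while APP/PS1 replicate 2 is near 0 at 0.06 but blue for Nr3c2.

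Glia and vessels also respond to corticosteroids, so their markers were read as well. The 10 oligodendrocyte markers all had positive differences, as 49.6% of all genes tested did, with a median of 0.24. By limma 5 of 10 were higher at an unadjusted p under 0.05 (2.85% of all genes tested) and 9 of 10 in the 4 libraries (4.2%), and 2 of 10 did not overlap between labels (5.38%). Their summed level overlapped at 321.0 to 410.7 FPKM for WT and 387.3 to 468.6 FPKM for APP/PS1 labels. The 8 astrocyte markers summed to between 537.5 and 575.6 against between 544.6 and 588.0 FPKM, and the 8 endothelial markers to between 43.4 and 47.6 against between 46.1 and 54.1 FPKM. The 6 microglia markers summed to between 69.7 and 76.8 against between 68.9 and 77.7 FPKM. The 7 choroid plexus markers all had positive differences with a median of 0.35, 3 of 7 were higher at an unadjusted p under 0.05 (1 of 7 in the 4 libraries), and 3 of 7 did not overlap, while their sums overlapped at 861.0 to 1207 against 1119 to 1395 FPKM. No marker of these lists was at 0 in any library, and the part of these cell types in the lower response genes was not tested.

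Median log2 differences in other parts of the pathway were small, while single genes such as Tsc22d1 differed more. Of 12 chaperone and co-chaperone genes that fold the receptors, 0 passed by limma and 2 were lower at an unadjusted p under 0.05 (3.83% of all genes tested), Fkbp4 and Stip1, which encodes the HSP70 to HSP90 adaptor HOP (log2 difference -0.19, adjusted p = 0.741). That count was 0 when WT replicate 1, WT replicate 2 or the first APP/PS1 replicate was left out, 1 when WT replicate 3 or APP/PS1 replicate 3 was, and 4 when APP/PS1 replicate 2 was and in the 4 libraries. Their median difference was -0.06, with Hsp90ab1, the constitutive HSP90, at -0.09 and the chaperone gene Dnaja1 at -0.13. Of 10 coregulator genes, 0 passed and 0 had an unadjusted p under 0.05 by limma, with a median of -0.05. The count lower at that level was 1 with array weights. It was 2 without WT replicate 3 and in the 4 libraries (4.98% of all genes tested there). The difference was negative in 9 of 10 (50.4% of all genes tested), with a range of -0.15 to 0.03. Within this list Crebbp, a histone acetyltransferase, had a difference of -0.09 and Ncoa1, a steroid receptor coactivator, one of -0.07. Among the TSC22 family, Tsc22d1 stood at 22.0, 21.2 and 28.2 FPKM in WT replicates 1 to 3, and at 19.3, 20.5 and 18.3 FPKM in APP/PS1 replicates 1 to 3, without overlap (log2 difference -0.28; limma, unadjusted p = 0.0365, adjusted p = 0.726). It was the 1 of 3 lower at an unadjusted p under 0.05 (3.83% of all genes tested). In some alternatives, such as that without WT replicate 3, this count was 0. Tsc22d2 and Tsc22d4 overlapped, at 0.08 and -0.04.

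Kinases related to Sgk1 and its substrates were read next. By limma 0 of the 6 genes tested in that list passed, and 0 had an unadjusted p under 0.05. Sgk3 had a log2 difference of 0.22, at 1.08, 1.25 and 1.18 FPKM for WT against 1.23, 1.26 and 2.18 FPKM for APP/PS1 labels. The labels overlapped, and the difference rested mainly on APP/PS1 replicate 3. Scnn1a, a subunit of the epithelial sodium channel, had a difference of -0.15 and Ndrg1, a substrate of SGK1, one of -0.04, while Sgk2 was not analysed here. In steroid metabolism and transport, 0 of 4 tested genes passed and 0 had an unadjusted p under 0.05, among them Abcb1a, a transporter that exports corticosteroids at the blood-brain barrier, at 0.03. Of the stress neuropeptide list 3 genes were tested by limma, 0 passed and 0 had an unadjusted p under 0.05. Crhr1, the main receptor for corticotropin-releasing hormone, had a log2 difference of -0.04, and Crh itself lay under the filter at 0.413 to 1.01 FPKM.

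Genes whose pattern was most like that of each member were found by Pearson's r of log2 levels over the 6 libraries, as a description of the highest among many. These libraries share the label difference, so any gene that differs by label ranks high. Of 1628 genes with an SD at least 0.5 times that of Nr3c2, Cyp26b1, an enzyme that degrades retinoic acid, came first for Nr3c2 (r = 0.997), at 2.56, 3.35 and 2.94 FPKM in WT replicates 1 to 3 and 2.0, 2.20 and 1.86 FPKM in APP/PS1 replicates 1 to 3. For Sgk1 they were Apold1 (r = 0.988), an endothelial gene of the immediate early class, Dhcr7 (r = 0.986), of cholesterol synthesis, and Nfkbia (r = 0.985). Apold1 stood at 5.81, 4.68 and 5.59 against 1.79, 5.66 and 1.46 FPKM, again with APP/PS1 replicate 2 among the WT-labelled libraries. Arl4d was among the first 3 for Tsc22d3 (r = 0.970), and Erf, a repressor of the ETS family, came first for Zbtb16 (r = 0.991). For Fkbp5 the named genes were Fez1 (r = 0.982), known from axon growth, and Gabra4 (r = 0.978), a GABA-A receptor subunit, and for Hsd11b1 Tmcc1 (r = 0.931). Nr3c1 varied too little for this measure.

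Circular RNA was listed in the same libraries in 2246 entries, of which 1989 carried only a database number and were not assigned to a gene. The other 257 carried coordinates, and 254 of these lay inside a GRCm38 gene. Of the 7 genes only Zbtb16 held such an entry, at chr9:48717282-48833099 on the minus strand as the file gives it (no build is named there), a span of 115818 bases. It had 1, 6 and 8 reads in WT replicates 1 to 3 and 1, 1 and 3 reads in APP/PS1 replicates 1 to 3, of 13998 to 19584 circRNA reads per library. WT replicate 1 was as low as the APP/PS1-labelled libraries, so the labels overlapped. As CPM of circRNA reads this was 424.0 (95% exact binomial interval 183.1 to 835.4) in the highest library, WT replicate 3, and 51.1 (1.29 to 284.5) in the lowest, APP/PS1 replicate 1, and these intervals cover counting error only.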

How the data were processed

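The 6 libraries have a table of genes and a table of circRNAs each. Gene levels are taken to be FPKM as the authors deposited them: the headers are silent on the unit, so it was inferred from decimals, from the totals and from StringTie, which is listed with FastQC, HISAT2 and mm9 in the submitters' processing notes without versions or roles. RNA was extracted with Trizol and made into TruSeq libraries, per the labels' protocols. For circRNAs the authors deposited whole-number counts, with a caller not given in the sources.

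The 13700 genes that reached 1 FPKM in 3 or more libraries entered limma 3.58.1 (R 4.3.3; empirical Bayes with trend and robust settings) on log2(FPKM + 1), APP/PS1 minus WT, with Benjamini-Hochberg adjustment over all of them and a threshold of 0.05. This scale understates changes of low genes. No count test was run on genes. App was compared with an exact permutation test. The fit was tested on simulated data with known changes. Alternatives were a pseudocount of 0.1, other filters, quantile or TMM scaling (edgeR 4.0.16), limma without trend or with array weights, the replicate number as a block, a threshold of 0.1 and each library left out in turn. The 4-library comparison was added with the App and Prnp values known.

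The 7 genes and all lists were chosen with earlier results of these data known. Named genes are the 7, App, Prnp, up to 4 per pathway list by smallest p, and for each of the 7 with an SD of at least 0.1 the 3 genes of highest r among those with an SD at least 0.5 times its own; predicted genes among these, and some others, are not printed, and 2 genes are not reported here. Ddit4, Dusp1, Klf9, Mertk, Mt1, Txnip, Fam107a and Angptl4 were named outside this rule, after their values were seen. Promoter windows are from RefSeq, GRCm38.p6. Although mm9 is listed, 254 of 257 circRNAs with coordinates (98.8%) lay inside a GRCm38 gene, and 85.2% and 89.5% did after shifts of 10000 bases either way. Host genes were assigned by this overlap, ignoring strand.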

Additional observations from a re-analysis of the deposited data

How the results depend on the processing

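Over 16 alternatives each, the log2 differences of Nr3c1, Nr3c2, Sgk1, Fkbp5, Tsc22d3 and Zbtb16 kept their direction, Nr3c2 between -0.87 and -0.61 with adjusted p between 0.113 and 0.699. Other filters, limma without trend, the replicate block and the threshold of 0.1 cannot change a log2 difference. Only the remaining alternatives thus bear on its direction. Hsd11b1 turned to 0.057 in the 4 libraries and was -0.31 when APP/PS1 replicate 1 was left out and -0.0081 when APP/PS1 replicate 2 was, while Fkbp5 was -0.26 without WT replicate 2 and -0.092 without WT replicate 3. The number of the 7 genes past the threshold was 0, except for 1 (Sgk1) without APP/PS1 replicate 2 and in the 4 libraries, and leaving out single libraries gave 0 to 1. For the other induced genes, leaving out single libraries gave 6 to 18 genes lower at an unadjusted p under 0.05 and 0 to 3 past the threshold, and the other settings 13 to 18 and 0. The difference in receptor ratio ran from -0.84 to -0.50, and that of the mean of the 4 response genes from -0.51 to -0.30. In their deviations from the label means, same-numbered libraries correlated at 0.0098, -0.056 and -0.094. Differently numbered ones correlated at -0.054 to 0.10. With 3 libraries per label such deviations sum to 0, so these values cannot settle whether replicate numbers pair the libraries. With the replicate block Nr3c2 stayed at -0.74 by design (limma, adjusted p = 0.512), and 0 of the 7 passed. The cause of these shifts was not tested. The depth behind FPKM is unknown, and circRNA reads in single digits limit the Zbtb16 circle.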
